A study of Homo sapiens with 6 samples.

Results

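The genes described here are the replication-dependent histone cluster genes, which encode the H1, H2A, H2B, H3 and H4 proteins made during DNA replication. They were taken as the rows whose Ensembl identifier, without its version, belongs to a protein-coding gene of GENCODE 29 with a symbol beginning HIST1H, HIST2H, HIST3H or HIST4H. This gave 71 members among 58243 identifiers, made up of 6 genes for H1, 17 for H2A, 18 for H2B, 15 for H3 and 15 for H4. Cluster 1 on chromosome 6 held 55 of them, cluster 2 held 12 and cluster 3 held 3 on chromosome 1, and HIST4H4 on chromosome 12 was the only member of cluster 4.

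RNA was measured in LX2, an established human line derived from hepatic stellate cells in their activated state, in which they lay down collagen. One group of 3 libraries came from cells transfected with small interfering RNA against AURKA (siAURKA), which encodes the mitotic kinase Aurora A, and the other group of 3 came from cells transfected with control small interfering RNA (siNC). Both groups were otherwise wild type, were plated at 1000000 cells per 100 mm dish in medium with 10% serum and were collected after 48 h. The comparison asks how transcript levels in these cells differ after knockdown of AURKA. LX2 is one cell line, and the labels do not say whether the numbered libraries came from separate cultures. The p-values therefore rest on library-to-library spread, which may be technical.

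Histone cluster genes supply the protein for new chromatin while DNA is copied. Their main messenger RNA has no introns and no poly(A) tail and ends in a conserved stem-loop that is bound by the stem-loop binding protein SLBP. Transcription takes place in nuclear histone locus bodies, where NPAT, a substrate of cyclin E and CDK2, acts as an activator. Some members also give polyadenylated messenger RNA, among them HIST1H1C, HIST1H2AC, HIST1H2BD, HIST1H2BK and HIST2H2BE, which are known for this in cells that have stopped dividing. Libraries that select poly(A) tails and libraries made from all RNA therefore see this family differently. The labels name total RNA and a standard Illumina library, and whether poly(A) selection was used is not given in the sources used here.

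The stem-loop was read from the GENCODE 29 transcripts (GRCh38) of members whose annotated model runs past the stop codon. The search was for a fixed 16-base core, with only C or T allowed between GG and CTTTTCAG and only A or G between CTTTTCAG and CC. A match, called a loop here, was found in 23 members, against 2 of 19613 other protein-coding genes with a sequence (0.0102%). Loops with other letters would be missed, so the likeness of the cores is largely set by the search. HIST1H4I and HIST2H4B, whose models run 261 and 741 bases past the stop codon, were among the members without a match. The loops of 6 members, 26 bases each, are printed to show how the core differs between histone types, with the core in capitals.

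HIST2H2BE: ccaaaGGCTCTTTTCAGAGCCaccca
HIST2H2AA3: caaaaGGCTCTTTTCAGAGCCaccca
HIST1H2AG: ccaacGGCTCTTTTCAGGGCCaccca
HIST1H3H: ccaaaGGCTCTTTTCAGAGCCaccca
HIST1H4H: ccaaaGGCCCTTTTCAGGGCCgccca
HIST1H4J: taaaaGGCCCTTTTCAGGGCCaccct

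These lie at chr1:149886183-149886208 on the minus strand for HIST2H2BE, chr1:149842218-149842243 on the minus strand for HIST2H2AA3 and chr6:27133510-27133535 on the plus strand for HIST1H2AG. HIST1H3H has its loop at chr6:27810511-27810536 on the plus strand, HIST1H4H at chr6:26285126-26285151 on the minus strand and HIST1H4J at chr6:27824454-27824479 on the plus strand. The core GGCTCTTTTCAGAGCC was shared by 6 H2A, 8 H2B and 3 H3 genes. All 5 H4 genes with a loop in their model had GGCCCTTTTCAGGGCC, and HIST1H2AG alone had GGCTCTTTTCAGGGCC.

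The annotated models set what a read can be assigned to. Only protein-coding models were sorted into the classes given here, whereas exonic length covers all transcripts of a gene. For 34 members the models held coding sequence only (coding-only models), for 12 they also held untranslated bases, at most 200 of them past the stop codon and with no intron (short models), and for 25 they ran on by over 200 bases past the stop codon or were spliced (extended models). The short model of HIST1H2BA has 0 bases past the stop codon. HIST1H3J, classed as coding-only, has 775 exonic bases against 411 coding bases, and HIST2H4A has 1876 against a protein-coding model of 583 bases. Of the 23 loops, that of HIST1H4J ended 6 bases before the end of its model, whereas the model of HIST2H2BE ran 1729 bases past its loop and that of HIST1H2AG 1761 bases. In 6 members, HIST1H4K, HIST2H2AA3, HIST2H2AA4, HIST2H3A, HIST2H3C and HIST2H4A, over 90% of the 100-base words occurred in another member, so the division of reads within those near-identical groups is uncertain. Separately, 15 members share exonic bases with a different gene, 5 of them over more than 80% of their length (HIST1H2AD, HIST1H2AK, HIST1H2AM, HIST1H3D and HIST2H3PS2).

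The labelled knockdown was visible in its target. AURKA was at 49.8, 47.0 and 51.1 CPM (deposited units scaled by library total and TMM factor, as throughout) in siAURKA replicates 1, 2 and 3, against 135.8, 128.0 and 95.0 CPM in siNC replicates 1, 2 and 3. The groups did not overlap, and the siAURKA level was 2.40-fold lower by geometric means. edgeR's quasi-likelihood test gave a log2 fold change of -1.28 (SE 0.28) with an unadjusted p of 0.00198 and an adjusted p of 0.9999, a two-sided exact permutation test gave p = 0.1, the smallest that 3 libraries against 3 allow, and DESeq2 gave an adjusted p of 0.0314. All 12 stellate cell markers tested, among them COL1A2 and PDGFRB, were detected, and ALB, TTR and APOB, which mark hepatocytes, were at 0 in all 6 libraries. These were the only 3 at 0 among 16 markers of other liver cells. Of the 16 markers, 11 were tested, and the list summed to 139.5 to 212.9 CPM in siAURKA and 121.4 to 271.3 CPM in siNC. Deposited totals ran between 33196829 and 53357402 units in siAURKA libraries and between 23366242 and 41764470 units in siNC libraries, with siNC replicate 2 the shallowest.

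The siNC library numbered 2 also stood apart in RNAs that carry no poly(A) tail. RN7SK, the RNA that holds the elongation factor P-TEFb inactive, was at 12.4, 56.7 and 7.14 CPM in siAURKA replicates 1, 2 and 3, against 5.66, 313.9 and 11.5 CPM in siNC replicates 1, 2 and 3. RN7SL1, the RNA of the signal recognition particle, was at 27.4, 131.9 and 26.8 CPM in siAURKA, against 13.6, 522.4 and 16.3 CPM in siNC. In both groups the library numbered 2 was the highest, and the siNC one exceeded every siAURKA library. Over the whole list of 17 such RNAs the summed level was 80.5, 368.5 and 90.6 CPM in siAURKA, against 47.5, 1447 and 90.4 CPM in siNC. Of that list 5 genes were tested, RN7SK, RN7SL1, RN7SL2, RMRP and RPPH1. MALAT1, a nuclear RNA whose end is also not a poly(A) tail, ran the other way, at 348.6, 145.3 and 191.9 CPM in siAURKA, against 410.5, 72.5 and 187.3 CPM in siNC. Each result on the histone genes is therefore given by same-numbered pair, so that pairs 1 and 3 can be read without the libraries numbered 2.

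Histone cluster messages were a small part of these libraries, and most of the family was near the limit of detection. Summed over all 71 members, the level was 138.4, 252.1 and 310.6 CPM in siAURKA, against 94.7, 243.4 and 226.7 CPM in siNC. The groups overlapped, with means of 233.7 ± 87.5 CPM in siAURKA and 188.3 ± 81.4 CPM in siNC (SD, n = 3 each), although the sum was higher in siAURKA in all 3 pairs, by log2 ratios of 0.55, 0.05 and 0.45 for pairs 1, 2 and 3 (0.5 CPM added). In bulk RNA, a larger share of cells making histone message and more message per cell cannot be told apart. A filter on low values (edgeR's filterByExpr) kept 54 members and left out 17, of which HIST1H2AA, HIST1H2BA and HIST1H4G were at 0 in all libraries. HIST1H2AA and HIST1H2BA encode the testis variants of H2A and H2B. Together with HIST1H1T, HIST1H2AH, HIST1H2BI, HIST1H2BM and HIST3H3, those 3 never reached 12 units, a floor that corresponds to 0.225 to 0.514 CPM depending on the library.

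No member passed the test. edgeR's quasi-likelihood test called 0 of 54 tested members at an adjusted p under 0.05 (0.0% of the 18775 genes tested were called), and the adjusted p was 0.9999 for every one of them. At an unadjusted p under 0.05 the count was 0 members, against 1.26% of all genes. The 8 smallest unadjusted p-values, of which that of HIST1H3H was the lowest at 0.0628 (edgeR), belonged to HIST1H3H, HIST1H4H, HIST1H2BJ, HIST1H2AG, HIST1H3F, HIST1H2AK, HIST1H2BG and HIST1H2BD, and 6 of these 8 were higher in siAURKA. DESeq2 called 0 members (0.0905% of all genes), and 0 had an unadjusted p under 0.05 (1.82% of all genes), with no p given for HIST1H1E. limma-voom also called 0 (0.0%), and 0 had an unadjusted p under 0.05 (1.43% of all genes).

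The same-numbered libraries varied together, so the fit with the replicate number as a block is given beside that result. With the block, edgeR again called 0 members (0.0% of all genes), with adjusted p-values of 0.569 or more. At an unadjusted p under 0.05 the block fit held 11 members that were higher in siAURKA (20.4% of tested members, against 3.93% of all genes) and 0 that were lower (4.55% of all genes). The 11 were HIST1H1C, HIST1H2AC, HIST1H2AG, HIST1H2BD, HIST1H2BJ, HIST1H2BK, HIST1H3H, HIST1H4H, HIST2H2AA3, HIST2H2AA4 and HIST2H4B. DESeq2 with the block called 246 of all genes (1.31%) but 0 members, the smallest adjusted p among members being 0.133 for HIST1H3H. This fit gave no adjusted p for some tested members of low level, among them HIST1H3F and HIST2H2AB, so these could not be called. At an unadjusted p under 0.05 it held 8 members that were higher (4.61% of all genes) and HIST2H2AB as the only lower one (5.1%). limma-voom with the block called 0 members (0.0% of all genes), and at an unadjusted p under 0.05 it held 11 higher (3.95% of all genes) and 1 lower (5.42%), HIST1H3F.

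By direction, edgeR's log2 fold change was above 0 for 28 of 54 members (48.5% of all genes), and the median over tested members was 0.05, against -0.01 over all tested genes. With the block the median was 0.26 for members and 0.02 for all genes. The members' median log2 ratio was 0.37 in pair 1, -0.18 in pair 2 and 0.32 in pair 3, while over all genes it was between -0.02 and 0.03 in every pair. Higher in siAURKA in all 3 pairs were 17 of 54 members (31.5%, against 17.9% of all genes). Lower in all 3 pairs were 4 (17.6% of all genes), HIST1H3F, HIST1H3G, HIST1H4D and HIST2H2AB. For HIST1H3F, HIST1H4D and HIST2H2AB both values of pair 1 lay under the floor. HIST2H2AB was at 0, 0.65 and 0 CPM in siAURKA, against 0.09, 0.76 and 0.45 CPM in siNC. In pairs 1 and 3 alone, 30 members were higher (55.6%, against 28.2% of all genes). The groups did not overlap at all for HIST1H2AG, HIST1H2BG, HIST1H4H and HIST2H2BE, all higher in siAURKA (3.33% of all genes), and for 0 members in the lower direction (2.52%).

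**Figure D1:**
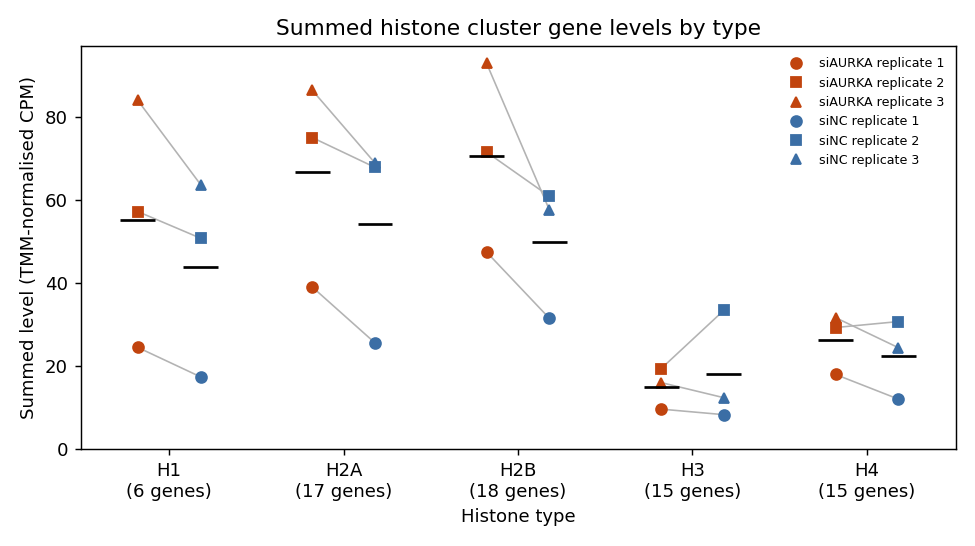
Summed level of the members of each histone type (vertical axis, TMM-normalised CPM) in each library, with siAURKA in red to the left of siNC in blue, grey lines joining same-numbered libraries and black bars at group means. H1, H2A and H2B were higher in siAURKA in all 3 pairs, whereas in pair 2 H3 was 19.4 CPM in siAURKA and 33.4 CPM in siNC.

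H1 proteins, the linker histones, sit on the DNA between nucleosomes. Of the 6 H1 genes, HIST1H1C (H1.2, chr6:26055787-26056428) stood far above the others, at 69.0 CPM per kb of exon over the 6 libraries. HIST1H1C was at 22.3, 49.3 and 82.4 CPM in siAURKA replicates 1, 2 and 3, against 16.7, 32.9 and 62.1 CPM in siNC replicates 1, 2 and 3. Replicate 3 was highest and replicate 1 lowest in both groups, so the groups overlapped, yet siAURKA was higher in each pair. The log2 ratios of the pairs were 0.40, 0.57 and 0.40, and edgeR's log2 fold change was 0.46 with an SE of 0.60 and an SE of 0.13 with the block.

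HIST1H1E (H1.4) differed from HIST1H1C in pair 2. Its level was 1.43, 4.17 and 1.27 CPM in siAURKA, against 0.32, 11.9 and 0.76 CPM in siNC. It was higher in siAURKA in pairs 1 and 3 and lower in pair 2, in which siNC replicate 2 had the highest value of all. HIST1H1B (H1.5) had 0.49, 2.30 and 0.07 CPM in siAURKA, against 0.23, 4.34 and 0.36 CPM in siNC, and HIST1H1D (H1.3) had 0.13, 0.75 and 0.16 CPM in siAURKA, against 0.09, 1.10 and 0.31 CPM in siNC. Both were also highest in siNC replicate 2. Summed over the 6 genes, H1 was at 24.5, 57.1 and 83.9 CPM in siAURKA, against 17.4, 50.7 and 63.6 CPM in siNC, and HIST1H1C made up most of each sum.

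H2A forms a dimer with H2B on the outside of the nucleosome core. Among the 17 H2A genes the highest level per kb was that of HIST2H2AA3 (28.6 CPM per kb) and its near-identical copy HIST2H2AA4 (22.7 CPM per kb), followed by HIST3H2A (9.0 CPM per kb) and HIST2H2AC (7.2 CPM per kb). HIST2H2AA3 was at 8.73, 20.2 and 25.5 CPM in siAURKA, against 5.86, 13.8 and 20.2 CPM in siNC. HIST2H2AA4 was at 7.52, 15.7 and 20.8 CPM in siAURKA, against 5.12, 10.5 and 17.1 CPM in siNC. Both were higher in siAURKA in every pair, with overlapping groups, and since the division of their reads is uncertain they do not count as independent.

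HIST1H2AC (chr6:26124145-26139116), one of the members known for polyadenylated message, was at 6.77, 9.09 and 14.6 CPM in siAURKA, against 3.48, 8.30 and 8.68 CPM in siNC. HIST1H2AG (chr6:27133042-27135291) was at 6.87, 4.201 and 4.47 CPM in siAURKA, against 3.62, 3.25 and 2.97 CPM in siNC. For HIST1H2AG every siAURKA library lay above every siNC library, with means of 5.18 ± 1.47 CPM in siAURKA and 3.28 ± 0.32 CPM in siNC (SD, n = 3 each). Its log2 fold change was 0.66 (SE 0.36, edgeR). HIST3H2A and HIST2H2AC, by contrast, were each higher in siAURKA in some pairs and lower in others.

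At the low end, HIST1H2AK had 0.43, 0.25 and 0.07 CPM in siAURKA, against 0.30, 3.10 and 0.14 CPM in siNC. Its log2 fold change of -2.19 (SE 1.25, edgeR) rested on siNC replicate 2, the only library above 1 CPM, and all of its exon lies within another gene. Of the 14 tested H2A genes, 4 were higher in siAURKA in all 3 pairs and 1, HIST2H2AB, was lower in all 3. Both values of HIST2H2AB in pair 1 lay under the floor. The H2A sum was 39.0, 74.9 and 86.3 CPM in siAURKA, against 25.5, 67.8 and 68.8 CPM in siNC.

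H2B was the type with the most members higher in siAURKA. Of 14 tested H2B genes, 7 were higher in all 3 pairs (HIST1H2BD, HIST1H2BG, HIST1H2BH, HIST1H2BJ, HIST1H2BK, HIST2H2BE and HIST3H2BB) and 0 were lower in all 3, and 11 had a log2 fold change above 0. The sum was 47.4, 71.4 and 92.8 CPM in siAURKA, against 31.5, 60.8 and 57.5 CPM in siNC. The groups overlapped, since siAURKA replicate 1 lay under siNC replicates 2 and 3, and the pair log2 ratios were 0.58, 0.23 and 0.69.

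HIST1H2BK (chr6:27146418-27146798) led H2B with 65.6 CPM per kb. It was at 15.5, 29.8 and 43.4 CPM in siAURKA, against 11.4, 20.4 and 29.4 CPM in siNC. As with HIST1H1C, the third library was highest in both groups and siAURKA exceeded siNC by a similar ratio in each pair, with log2 ratios of 0.42, 0.54 and 0.55. HIST1H2BD (chr6:26158146-26171349) was at 6.22, 11.3 and 13.7 CPM in siAURKA, against 2.83, 8.73 and 6.61 CPM in siNC. Its log2 ratios were 1.01, 0.35 and 1.003, and 2 of 3 siAURKA libraries exceeded every siNC library. HIST1H2BJ (chr6:27125897-27132750) was at 3.10, 3.95 and 8.05 CPM in siAURKA, against 1.21, 3.44 and 2.77 CPM in siNC, with the smallest ratio in pair 2.

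HIST2H2BE (chr1:149884459-149886652) varied little within groups. It was at 9.80, 10.95 and 10.97 CPM in siAURKA, against 7.35, 7.54 and 8.71 CPM in siNC. The groups did not overlap, and the means were 10.6 ± 0.67 CPM in siAURKA and 7.87 ± 0.74 CPM in siNC (SD, n = 3 each). Its log2 fold change was 0.43, with an SE of 0.29 and an unadjusted p of 0.182 (edgeR). HIST1H2BG, at 1.55, 2.83 and 2.51 CPM in siAURKA, against 1.16, 1.53 and 1.51 CPM in siNC, also kept its groups apart.

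H3 and H4 form the tetramer at the centre of the nucleosome. In pair 2 the sums of H3 and, by less, of H4 were lower in siAURKA, while in pairs 1 and 3 both were higher. The H3 sum was 9.63, 19.4 and 16.02 CPM in siAURKA, against 8.30, 33.4 and 12.4 CPM in siNC, and H3 made up 13.7% of all histone cluster CPM in siNC replicate 2, against 5.2% to 8.8% in the other 5 libraries. HIST1H3C, the H3 gene with the most CPM per kb (5.3), was at 1.15, 2.15 and 1.98 CPM in siAURKA, against 0.60, 5.25 and 2.04 CPM in siNC. HIST1H3B was at 0.45, 2.24 and 0.36 CPM in siAURKA, against 0.37, 4.87 and 0.31 CPM in siNC. Both encode H3.1 and both had siNC replicate 2 as their highest library.

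HIST1H3F was lower in siAURKA in all 3 pairs, at 0.07, 0.47 and 0.18 CPM in siAURKA, against 0.09, 2.91 and 0.45 CPM in siNC, but in pair 1 both values were under the floor. HIST1H3D was at 0.45, 1.77 and 1.36 CPM in siAURKA, against 1.39, 2.05 and 0.95 CPM in siNC, and its exon lies wholly inside another gene. HIST3H3, the testis H3 gene, stayed under the floor in all libraries. HIST1H3H (chr6:27810064-27811300) was the exception within H3. It was at 2.44, 3.27 and 5.05 CPM in siAURKA, against 0.997, 1.24 and 2.63 CPM in siNC, and was higher in every pair by log2 ratios of 0.97, 1.11 and 0.83. The lowest siAURKA library lay below the highest siNC library, so the groups overlapped, and the log2 fold change of 1.14 (SE 0.52, edgeR) was the highest among the 54 tested members.

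All but a few H4 genes encode one and the same protein. The sum over the 15 H4 genes was 17.97, 29.3 and 31.6 CPM in siAURKA, against 12.1, 30.7 and 24.4 CPM in siNC. HIST2H4B was at 5.90, 7.94 and 11.01 CPM in siAURKA, against 4.01, 5.01 and 7.45 CPM in siNC, and its copy HIST2H4A at 4.37, 5.45 and 8.59 CPM in siAURKA, against 3.41, 3.20 and 6.02 CPM in siNC. HIST1H4H (chr6:26277609-26285638) was at 3.34, 3.73 and 3.87 CPM in siAURKA, against 1.81, 2.48 and 2.32 CPM in siNC. Its groups did not overlap, and its log2 fold change was 0.73 (SE 0.35, edgeR). HIST1H4J and HIST1H4K, which share sequence, went with the low H3 genes. HIST1H4J was at 0.51, 1.62 and 0.73 CPM in siAURKA, against 0.56, 4.06 and 0.70 CPM in siNC, and HIST1H4K at 0.60, 1.68 and 0.40 CPM in siAURKA, against 0.28, 2.77 and 0.90 CPM in siNC.

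By cluster, the pair ratios lay closest together in cluster 2. Its sum was 40.9, 73.3 and 84.9 CPM in siAURKA, against 30.4, 59.7 and 66.2 CPM in siNC, with pair log2 ratios of 0.42, 0.29 and 0.36. Cluster 1 summed to 93.2, 165.5 and 213.9 CPM in siAURKA, against 59.9, 173.0 and 150.0 CPM in siNC, with ratios of 0.63, -0.06 and 0.51. Cluster 3 consisted almost wholly of HIST3H2A, at 3.61, 11.5 and 10.8 CPM in siAURKA, against 4.195, 7.83 and 10.2 CPM in siNC, which was lower in siAURKA in pair 1 and higher in the others. Its neighbour HIST3H2BB was at 0.14, 1.37 and 0.98 CPM in siAURKA, against 0.12, 1.05 and 0.22 CPM in siNC, and is counted as higher in all 3 pairs although both values of pair 1 lay under the floor. HIST4H4, the single H4 gene away from the clusters, was at 0.47, 0.40 and 0.09 CPM in siAURKA, against 0.02, 1.81 and 0 CPM in siNC. No direction can be read from it, since the highest and the lowest library were both siNC.

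**Figure D2:**
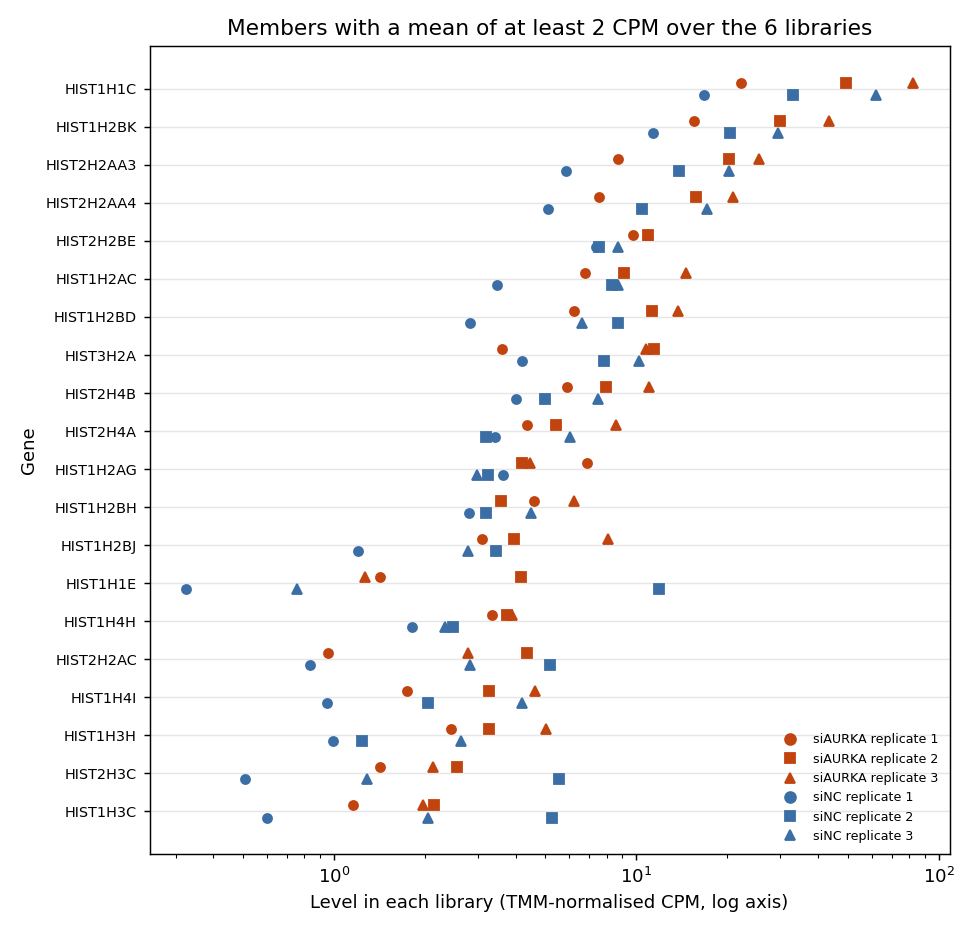
Level of the 20 members with a mean of at least 2 CPM over all libraries (horizontal log axis, TMM-normalised CPM), with siAURKA libraries in red above siNC libraries in blue and 1 symbol for each replicate number. For 15 of the 20 each siAURKA symbol lies to the right of the same siNC symbol, and HIST1H1E, HIST2H2AC, HIST2H3C and HIST1H3C have siNC replicate 2 at the far right.

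The abundant members were mostly higher in siAURKA, and the scarce ones were mostly highest in siNC replicate 2. With the members divided by their mean over all 6 libraries at 2 CPM, a value chosen after the levels were seen, 15 of the 20 upper members were higher in siAURKA in all 3 pairs, and 2 of the 51 lower ones (34 of them tested). The 20 upper members summed to 117.7, 206.5 and 282.2 CPM in siAURKA, against 78.0, 161.8 and 202.8 CPM in siNC, with pair log2 ratios of 0.59, 0.35 and 0.48. The 51 lower members summed to 20.7, 45.6 and 28.4 CPM in siAURKA, against 16.7, 81.6 and 23.9 CPM in siNC, with ratios of 0.30, -0.83 and 0.24. In pair 2, 29 of the 34 tested lower members were lower in siAURKA, against 10 in pair 1 and 16 in pair 3. HIST1H2BG and HIST3H2BB were the 2 lower members that were higher in all pairs.

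The library with the highest value differed in the same way. siNC replicate 2 was the highest library for 37 of the 51 lower members and for 4 of the 20 upper ones, HIST1H1E, HIST1H3C, HIST2H2AC and HIST2H3C. The mean behind the cut includes this library, so the division and the count are not independent. HIST1H1E, HIST1H3C and HIST2H3C, with means of 3.31, 2.20 and 2.24 CPM, reached 2 CPM only through siNC replicate 2. Their values there were 11.9, 5.25 and 5.54 CPM. siAURKA replicate 3 was the highest for 14 of the 20 upper members. Over the tested members, 55.6% were highest in siNC replicate 2, against 25.2% of all tested genes. The RNAs without a poly(A) tail had the same pair of libraries on top, siNC replicate 2 and then siAURKA replicate 2, as the sum of the lower members did. Their part in the histone values was not tested.

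**Figure D3:**
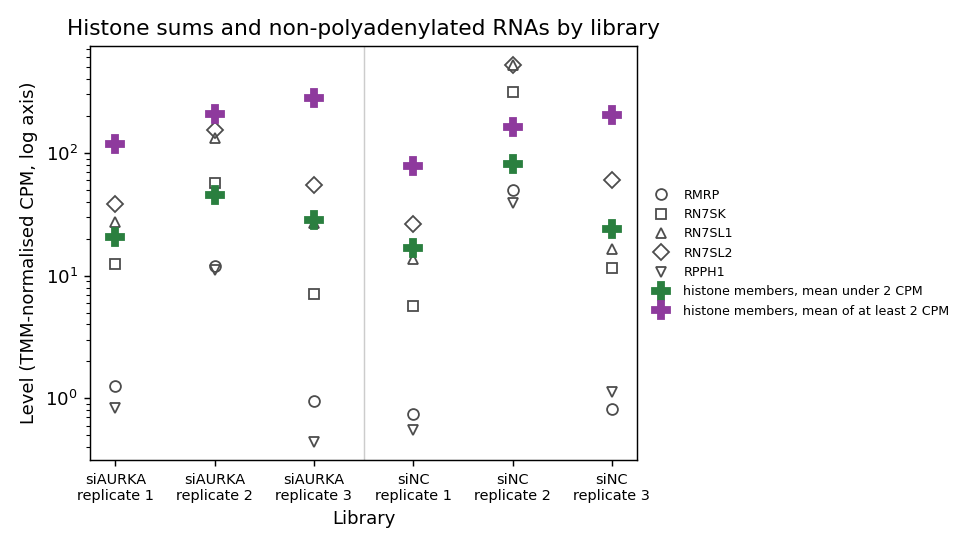
Level in each library (vertical log axis, TMM-normalised CPM) of 5 RNAs without a poly(A) tail (open symbols) and of the summed histone members above and below a mean of 2 CPM (filled crosses), with siAURKA libraries to the left of siNC libraries. The green crosses, the lower members, are highest in siNC replicate 2 at 81.6 CPM and next in siAURKA replicate 2 at 45.6 CPM, as are the open symbols, and the purple crosses, the upper members, are highest in siAURKA replicate 3.

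A similar division was seen by annotated model, which overlaps the division by level. Of the 25 members with extended models 13 were higher in siAURKA in all 3 pairs, 20 had a log2 fold change above 0, and their sum was 70.7, 98.0 and 118.2 CPM in siAURKA, against 44.2, 83.9 and 77.9 CPM in siNC. Of the 34 members with coding-only models 21 were tested, 4 of those had a log2 fold change above 0, and 2, HIST1H1C and HIST1H2BK, were higher in all 3 pairs. For 27 of the 34, siNC replicate 2 was the highest library. All extended models passed the filter on low values and many coding-only ones did not, so the counts of tested members are not over all members of each class. Of the 12 short models, HIST2H2AA3 and HIST2H2AA4 were higher in all 3 pairs.

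**Figure D4:**
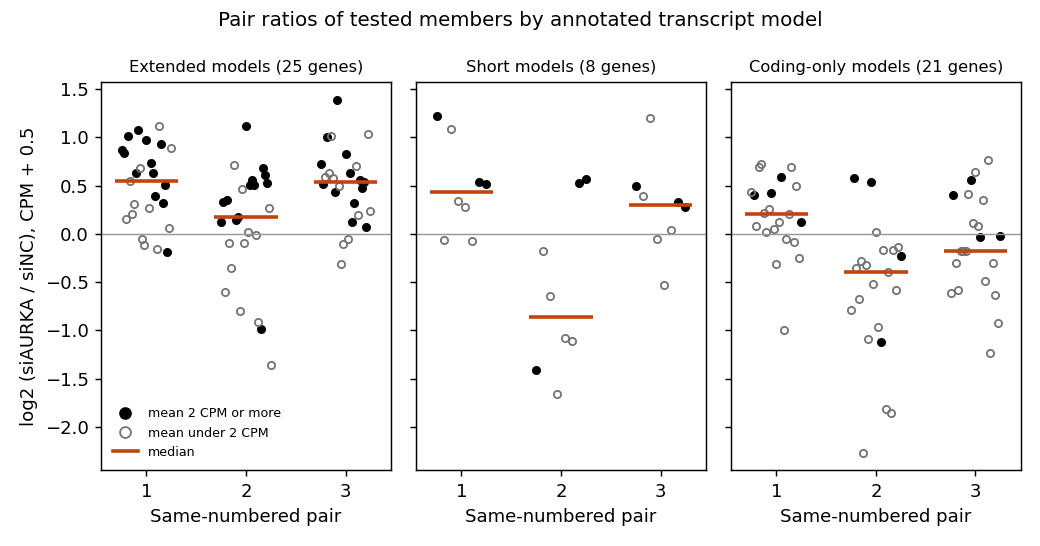
log2 ratio of siAURKA to siNC (0.5 CPM added) in each same-numbered pair for the 54 tested members, in 3 panels by annotated transcript model, with filled points for members of at least 2 CPM on average, open points for the rest and red bars at medians. The medians of extended models are 0.55, 0.18 and 0.53 for pairs 1, 2 and 3, and those of coding-only models are 0.20, -0.39 and -0.18.

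The 5 members known for polyadenylated message in non-dividing cells were all higher in siAURKA in every pair (17.9% of all genes). This was not particular to them. All 5 are among the 20 members with a mean of at least 2 CPM, of which 15 were higher in every pair. Those 15 include HIST2H2AA3, HIST1H3H and HIST2H4B, which are not on this list. The 5 were HIST1H1C, HIST1H2AC, HIST1H2BD, HIST1H2BK and HIST2H2BE, whose values are given above, and their median log2 fold change was 0.54. Their sum was 60.5, 110.4 and 165.1 CPM in siAURKA, against 41.8, 77.9 and 115.5 CPM in siNC. None of the 5 was called by any of the 6 fits, and none showed a group separation except HIST2H2BE. HIST1H1C and HIST1H2BK alone made up 21.9% to 40.5% of all histone cluster CPM, and without them the remaining 69 members summed to 100.7, 173.0 and 184.8 CPM in siAURKA, against 66.6, 190.1 and 135.2 CPM in siNC.

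Many histone genes stand head to head and share the DNA between them. In 12 pairs of members on opposite strands, annotated gene starts lay under 500 bases apart. HIST1H2BO was counted both with HIST1H2AM, 314 bases away, and with HIST1H3J, 357 bases away. The annotated start of HIST1H3J lies inside HIST1H2AM, so HIST1H3J and HIST1H2BO are not direct neighbours. HIST1H2BK and HIST1H2AH started 331 bases apart, and HIST1H2BK had 65.6 CPM per kb where HIST1H2AH had 0.45 CPM per kb. HIST1H2BJ and HIST1H2AG, 292 bases apart, had 4.0 CPM per kb and 1.9 CPM per kb and were both higher in siAURKA in all 3 pairs, the only head-to-head neighbours of which this held. HIST2H2BE and HIST2H2AC, 323 bases apart, had 4.2 CPM per kb and 7.2 CPM per kb, and only HIST2H2BE was higher in all 3 pairs. Levels per kb depend on annotated exon length, and without that division the order reversed for both of these neighbour pairs. Mean CPM was 9.22 for HIST2H2BE (2194 bases) and 2.83 for HIST2H2AC (390 bases). It was 3.75 for HIST1H2BJ (950 bases) and 4.23 for HIST1H2AG (2250 bases). HIST2H2AC was at 0.96, 4.36 and 2.78 CPM in siAURKA, against 0.83, 5.20 and 2.83 CPM in siNC.

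Promoter windows were available for 61 members from RefSeq (GRCh38.p14). Where a member had several, the window with its start nearest the GENCODE start was used. Some RefSeq starts still lay far from the GENCODE start, by 11702 bases for HIST1H2BE, 809 for HIST1H2BN, 694 for HIST1H4I and 402 for HIST1H3G. In windows of 250 bases before to 50 bases after the start, searched on both strands, CCAAT occurred in 51 of 61 members, against 34.7% of 22199 windows of protein-coding genes. It was in all 6 H1, 14 H2A, 18 H2B and 10 H3 windows and in 3 of 13 H4 windows. TATAAA occurred in 41 of 61, against 9.47%, and the octamer ATTTGCAT, to which POU2F1 can bind, in 25 of 61, against 1.66%. The octamer was found in 11 of 14 H2A and 14 of 18 H2B windows and in 0 H1, H3 and H4 windows. Windows of head-to-head neighbours share bases, so an H2A and an H2B gene can be counted for the same match. A match is a description of the letters and not evidence of binding.

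The 250 bases before the start of HIST1H2BK (chr6:27146856-27147105), HIST1H2BJ (chr6:27132796-27133045), HIST2H2BE (chr1:149886683-149886932) and HIST1H1C (chr6:26056471-26056720), all on the minus strand, are printed because these genes were higher in siAURKA in every pair and differ in their motifs. Capitals mark the CCAAT box, the TATA box and the octamer, each on either strand and with the letters given above, and the TATA box of one strand can overlap that of the other.

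HIST1H2BK: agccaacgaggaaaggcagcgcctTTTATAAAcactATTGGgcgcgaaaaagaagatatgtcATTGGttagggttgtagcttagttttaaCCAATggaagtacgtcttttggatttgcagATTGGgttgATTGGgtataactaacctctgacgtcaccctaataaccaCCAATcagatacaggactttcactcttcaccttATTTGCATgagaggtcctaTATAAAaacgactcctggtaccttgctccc
HIST1H2BJ: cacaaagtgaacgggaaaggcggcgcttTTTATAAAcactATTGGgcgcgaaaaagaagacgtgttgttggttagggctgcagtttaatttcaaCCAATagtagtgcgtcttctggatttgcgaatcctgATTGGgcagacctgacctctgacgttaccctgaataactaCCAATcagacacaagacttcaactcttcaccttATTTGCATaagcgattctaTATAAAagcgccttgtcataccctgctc
HIST2H2BE: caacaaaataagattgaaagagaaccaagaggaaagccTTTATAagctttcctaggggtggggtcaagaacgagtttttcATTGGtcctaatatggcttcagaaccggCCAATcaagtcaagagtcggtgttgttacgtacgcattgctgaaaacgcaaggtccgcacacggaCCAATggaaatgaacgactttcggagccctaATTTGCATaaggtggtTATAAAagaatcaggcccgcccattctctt
HIST1H1C: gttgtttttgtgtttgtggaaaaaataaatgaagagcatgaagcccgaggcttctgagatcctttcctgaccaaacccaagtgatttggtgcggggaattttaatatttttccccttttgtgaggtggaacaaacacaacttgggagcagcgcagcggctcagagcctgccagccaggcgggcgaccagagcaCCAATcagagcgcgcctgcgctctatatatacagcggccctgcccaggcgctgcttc

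The 3 H2B stretches each hold 1 octamer followed by a TATAAA. The HIST1H1C stretch holds 1 CCAAT and, in the exact letters searched, neither of the other motifs. Whether the motifs bear on the levels was not tested.

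No gene that makes or processes histone message was called. Of 23 such genes 21 were found and tested, and 0 were called by edgeR or DESeq2 with or without the block. Of all genes, edgeR called 0.0% with or without the block, and DESeq2 called 0.0905% without it and 1.31% with it. Among the 21, 5 were higher and 4 lower in siAURKA in all 3 pairs (17.9% and 17.6% of all genes). The median log2 fold change was 0.00. SLBP was at 138.5, 149.7 and 108.9 CPM in siAURKA, against 114.4, 94.0 and 129.5 CPM in siNC. ZNF473, the zinc finger protein of the U7 processing particle, was at 47.4, 26.2 and 36.0 CPM in siAURKA, against 33.0, 12.5 and 23.9 CPM in siNC. CPSF3, the nuclease that cuts the message after the loop, was at 56.2, 60.8 and 68.8 CPM in siAURKA, against 48.7, 23.6 and 54.5 CPM in siNC. Its groups did not overlap, with siAURKA higher (3.33% of all genes). LSM11, a ring protein of the same particle, was lower in all 3 pairs, at 16.04, 9.18 and 6.76 CPM in siAURKA, against 23.9, 12.8 and 10.3 CPM in siNC.

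Genes of S phase, when histone message is made, were likewise not called (0.0% of all genes by edgeR). Of 20 tested, 7 were higher and 4 lower in siAURKA in all 3 pairs (17.9% and 17.6% of all genes), and the median log2 fold change was 0.09. CCNA2, the S phase cyclin, was at 171.0, 100.9 and 133.4 CPM in siAURKA, against 150.0, 66.6 and 95.5 CPM in siNC, while MCM2, a subunit of the replicative helicase, was at 256.9, 254.2 and 250.7 CPM in siAURKA, against 317.6, 435.7 and 319.6 CPM in siNC. MCM2 had no overlap between groups (siAURKA lower, 2.52% of all genes) and an edgeR log2 fold change of -0.49 (SE 0.26).

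Replacement histones, which are made outside replication from polyadenylated message, had a median log2 fold change of -0.03 over 11 tested genes. Of these, 3 were higher and 2 lower in all 3 pairs (17.9% and 17.6% of all genes), and 0 were called (0.0% of all genes by edgeR). H3F3B, a source of H3.3, was at 339.4, 442.4 and 437.5 CPM in siAURKA, against 463.0, 601.2 and 501.5 CPM in siNC, with every siAURKA library below every siNC library (2.52% of all genes). H3F3A, the other source of H3.3, was at 90.7, 93.1 and 132.0 CPM in siAURKA, against 90.6, 51.6 and 99.2 CPM in siNC, higher in all 3 pairs with overlapping groups. CENPA, the centromeric H3, was at 25.8, 19.0 and 20.1 CPM in siAURKA, against 17.8, 13.4 and 18.1 CPM in siNC, with every siAURKA library above every siNC library (3.33% of all genes). Histone chaperones had a median of 0.05 over 17 tested genes, with 3 higher and 1 lower in all 3 pairs and 0 called. NASP, which binds linker histones and H3 with H4, was at 254.5, 179.1 and 180.7 CPM in siAURKA, against 167.1, 118.1 and 173.9 CPM in siNC. Its groups did not overlap, with siAURKA higher (3.33% of all genes).

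Cell markers gave no called gene either (0.0% of all genes by edgeR). Higher and lower in all 3 pairs were 17.9% and 17.6% of all genes. The 12 stellate cell genes had a median log2 fold change of -0.16, with 3 higher and 2 lower in all 3 pairs. They summed to 7367, 12515 and 8790 CPM in siAURKA, against 8064, 13328 and 10453 CPM in siNC. COL1A2, at 8.51, 11.9 and 6.90 CPM in siAURKA, against 5.15, 2.86 and 5.04 CPM in siNC, had no overlap between groups. Nor did ACTA2, at 18.7, 18.7 and 20.4 CPM in siAURKA, against 11.8, 17.3 and 11.2 CPM in siNC. Both were higher in siAURKA (3.33% of all genes), while COL6A1 was lower in all 3 pairs with overlapping groups. The 16 markers of other liver cells, of which 11 were tested, had a median of -0.27, with 2 higher and 4 lower in all 3 pairs, and summed to 139.5 to 212.9 CPM in siAURKA, against 121.4 to 271.3 CPM in siNC. Both sums were highest in the siNC library numbered 2 and next highest in the siAURKA library numbered 2. The stellate cell genes did not share this order as a set, since VIM made up most of their sum in every library. VIM, COL6A1, LOX, TAGLN and TIMP1 followed the order. By contrast, COL1A1, COL1A2, COL3A1, COL4A1, PDGFRB and SPARC were lowest in the siNC library numbered 2, and ACTA2 was neither highest nor lowest there. The part of either sum in the histone values was not tested.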

How the data were processed

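The authors deposited one table of whole numbers per Ensembl gene for 6 libraries, read here as estimated counts; rounding altered nothing. Reads were aligned with HISAT2 to GRCh38, per the submitters' processing notes. How reads were counted, on which annotation and whether by strand is not given in the sources used here, so overlapping genes are uncertain. Between 30.3% and 34.0% of deposited values from 1 to 24 were multiples of 4, against 25% for equal frequencies. If 4 units stand for 1 fragment, totals overstate depth by that factor, and the floor of 3 fragments is 12 units, covering counting error only.

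Of the identifiers, 57980 matched GENCODE 29 and 263 did not; all 71 members had the same version there. Genes kept by filterByExpr (18775) entered edgeR's quasi-likelihood test with TMM scaling on siAURKA over siNC, two-sided, without covariates, with Benjamini-Hochberg adjustment at 0.05. Sums and levels use TMM-normalised CPM over all members.

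Same-numbered libraries had correlated deviations from their group means (0.647, 0.477 and 0.302 for numbers 1, 2 and 3; other combinations between -0.525 and 0.040), so the numbers were taken to pair libraries. This comes from the data, since the labels name no shared day. Fits were tested on simulated data first.

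Alternatives were the replicate block, DESeq2, limma-voom, other scaling and filters, division by 4 and leaving out libraries. Members and lists were chosen with earlier results of these data known. Named members were the 4 highest per kb of each type, the 8 with the smallest p, all of clusters 3 and 4 and the polyadenylated list, with up to 4 genes of each other list by smallest p; further genes were named after their values were seen. Fits used edgeR 4.0.16, DESeq2 1.42.0 and limma 3.58.1 in R 4.3.3; tables and figures used pandas 2.3.3, matplotlib 3.10.9 and numpy 2.4.6 in Python 3.11.15.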

Additional observations from a re-analysis of the deposited data

How the results depend on the processing

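No histone member was called in any fit run, with or without the replicate block, without any one library or without both libraries of one number, and the block changed no call on a member. Over all genes, edgeR's 0 calls became 17 with DESeq2, 246 with DESeq2 and the replicate block, 122, 279 and 61 with that fit without the libraries numbered 1, 2 and 3, and 3 with edgeR's block without the libraries numbered 2; leaving out one library at a time gave 0 to 2, the 2 without siAURKA replicate 2. The log2 fold change of AURKA passed the threshold with DESeq2 (-1.29), with its replicate block (-1.28) and with that block without the libraries numbered 1, 2 and 3 (-1.19, -1.17 and -1.47), and ranged from -1.41 to -1.17 without single libraries.

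The members' median log2 fold change of 0.05 was 0.42 with a filter of 1 CPM in 3 libraries, 0.38 with limma-voom, 0.40 with values divided by 4, and 0.45 and 0.44 with the blocked edgeR and DESeq2 fits without the libraries numbered 2. Without single libraries it ranged from -0.33 to 0.59, the 0.59 without siNC replicate 2. The number of members higher in all pairs compared was 30 with pairs 1 and 3 only. Without single libraries the log2 ratio of the summed CPM ranged from -0.086 to 0.69 for all members, -0.21 to 0.84 for H1, -0.11 to 0.70 for H2A, 0.20 to 0.76 for H2B, -0.49 to 0.49 for H3, -0.10 to 0.56 for H4, -0.11 to 0.70 for cluster 1, 0.012 to 0.67 for cluster 2, -0.18 to 0.68 for cluster 3 and -0.46 to 0.65 for cluster 4. Without siNC replicate 2 these were 0.59 for all members, 0.55 for H1, 0.67 for H2B and 0.49 for H3.

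Directions reversed for 8 named members in fits other than single omissions, and the cause was not tested. HIST1H1E was 0.36 with edgeR's replicate block, 0.43 with DESeq2's block, 0.82 with limma-voom, 1.42 and 1.43 with the blocked fits without the libraries numbered 2 and 0.14 and 0.20 without those numbered 3. HIST4H4 was 1.16, 2.22 and 1.86 with the same 3 fits, 0.28 with blocked DESeq2 without the libraries numbered 1, and 0.43 and 0.76 without those numbered 3. Without the libraries numbered 2, the blocked fits gave -0.066 and -0.072 for HIST3H2A, 0.085 and 0.081 for HIST2H2AC, 0.43 and 0.43 for HIST1H3C and 0.25 and 0.24 for HIST1H3B; limma-voom gave 0.040 for HIST2H2AC and 0.036 for HIST1H3C. HIST1H3D was 0.14 and 0.13 without the libraries numbered 1, and HIST1H4K 0.13 and 0.13 without those numbered 3.

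Without single libraries the log2 fold change ranged from -0.068 to 1.06 for HIST1H1C, -2.52 to 1.66 for HIST1H1B, -1.77 to 0.75 for HIST1H1D, -1.67 to 2.08 for HIST1H1E, -2.89 to 0.18 for HIST1H2AK, -2.16 to 1.56 for HIST1H3B, -1.04 to 0.41 for HIST1H3C, -0.69 to 0.092 for HIST1H3D, -1.49 to 0.59 for HIST1H4J, -1.37 to 0.60 for HIST1H4K, -0.65 to 0.56 for HIST2H2AC, -0.071 to 0.58 for HIST3H2A and -1.48 to 4.41 for HIST4H4. The other named members kept their direction, over ranges of -3.15 to -0.19 for HIST1H3F, 0.32 to 2.27 for HIST3H2BB, 0.090 to 0.89 for HIST2H2AA3, 0.086 to 0.93 for HIST2H2AA4, 0.14 to 0.91 for HIST1H2BK, 0.21 to 0.80 for HIST1H2AC, 0.21 to 0.90 for HIST2H4A, 0.33 to 0.89 for HIST2H4B, 0.45 to 1.15 for HIST1H2BD, 0.51 to 1.34 for HIST1H2BJ, 0.80 to 1.69 for HIST1H3H, 0.39 to 0.80 for HIST1H2AG, 0.54 to 0.93 for HIST1H2BG, 0.61 to 0.82 for HIST1H4H and 0.38 to 0.51 for HIST2H2BE. Depth limits the 51 members under 2 CPM, many of whose values lie at or under the floor of 0.225 to 0.514 CPM.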
